A study of Caenorhabditis elegans with 6 samples.

Results

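Peaks of open chromatin at the 3′ ends of protein-coding genes were described in isolated germ nuclei (IGN) of *Caenorhabditis elegans*. A peak was a member when its summit lay in an annotated 3′ UTR or 1 to 200 bp downstream of a coding gene's 3′ end. The summit also had to lie in no coding sequence and more than 500 bp from every coding gene's 5′ end. Of the 13996 wild type peaks, 476 (3.4%) were members, at 466 genes. Of the 9674 *prde-1* peaks, 378 (3.91%) were members, at 368 genes. In wild type, 160 members had the summit in a 3′ UTR and 316 had it downstream of the gene, and in the *prde-1* mutant these numbers were 105 and 273.

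The peaks come from ATAC-seq, in which the Tn5 transposase cuts DNA that is not covered by nucleosomes. IGN were prepared by breaking whole young adults grown at 20°C and straining out the debris, so a remainder of somatic nuclei is possible. The wild type strain was VC2010, and the mutant was SX2499, which carries *prde-1(mj207)V*, an allele of a germ line subunit of the upstream sequence transcription complex (USTC) at piRNA genes. There were 3 samples per genotype. The mutants were harvested some hours later in growth than wild type, at a matched stage, so genotype and growth time cannot be told apart. The authors deposited 1 pooled list of peaks per genotype. No value below therefore has a replicate error, no test was made, and the 95% intervals (Wilson for shares, exact Poisson for densities) cover counting error only. Ranks order the peaks within a list by the peak caller's score, rank 1 being the highest, since scores of the 2 lists have no common scale.

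A 3′ UTR runs from the stop codon to the site where the transcript is cut and polyadenylated, which in animals commonly follows an AAUAAA signal in the RNA. In the *C. elegans* germ line, 3′ UTRs carry much of the control of translation, through RNA-binding proteins of the PUF, CCCH zinc finger and KH families. On the DNA level, the 3′ end is where RNA polymerase II slows and leaves the template, and in a compact genome it often lies close to the next gene. Peaks of open chromatin are known mainly from promoters and enhancers.

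The sequences that recur in the results are a CT repeat near summits in 3′ UTRs and the AATAAA signal at the gene end. They were read from the RefSeq genome (WBcel235, the assembly of ce11) on the strand of the gene, 5′ to 3′, and both motifs were chosen after the data had been seen. The first set shows the repeat in 3′ UTRs of 6 high-ranking wild type members that hold it within 50 bp of the summit, with CTCTCTC in capitals. The windows are, in order, on chrV:14351188-14351217 (plus strand), chrII:217203-217232 (minus), chrIII:4276843-4276872 (minus), chrII:15271716-15271745 (plus), chrIV:13893513-13893542 (plus) and chrV:4810873-4810902 (minus).
cept-2: ccacggccacgCTCTCTCtatctgctctct
ubxn-3: tttctcttcgtCTCTCTCtttctctcacac
sup-26: cgtctctctctCTCTCTCcctctctatctc
rga-9: ctatctccacaCTCTCTCtctcacttatga
lin-66: attcacactctCTCTCTCtcaccttctctc
ccep-97: tccctccctctCTCTCTCtgagagcaaatc

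The last 30 bases of 4 genes with a member are printed with AATAAA in capitals, because distances below are counted from the last of these bases. *mex-5* (chrIV:13356075-13356104, plus strand) has its summit inside the 3′ UTR. *C07H6.9* (chrIII:7498748-7498777, minus), *rpl-7A* (chrIV:4389143-4389172, minus) and *C16D9.6* (chrV:8248111-8248140, minus) have it downstream.
mex-5: tcaaactccAATAAAtggtgcaaagattat
C07H6.9: tcctttAATAAAttttcatcgacgctggta
rpl-7A: gtttttgttgatAATAAAaacttgttattc
C16D9.6: atttcttttaAATAAAttatttttccgtct

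Summits were sparse at the 3′ end itself and dense shortly past it. In wild type, the stretch from 50 bp upstream to the 3′ end held 13 summits per Mb (5.23 to 26.8, 7 summits) and the first 50 bp past it 31.4 (19.5 to 48.0, 21 summits). From 51 to 200 bp downstream the density was 187 per Mb (167 to 208, 321 summits), and from there to 500 bp it was 139 per Mb (125 to 153, 391 summits). The *prde-1* list had the same order, with 14.9, 31.4, 155 (137 to 175) and 92.3 (81.4 to 104.2) summits per Mb. The intervals of the last 2 stretches do not overlap in either list. These densities count summits over 500 bp from coding 5′ ends and outside coding sequence, by their nearest coding 3′ end. Upstream of that end only annotated 3′ UTR bases were counted, and downstream of it all such bases. Peaks that overlap a small noncoding RNA gene (tRNA, snRNA, snoRNA, rRNA or miRNA) were part of these densities. Without such peaks, the wild type densities of the last 2 stretches were 155 (137 to 175) and 120 per Mb (108 to 133). The *prde-1* densities were then 127 (111 to 146) and 72.8 per Mb (63.2 to 83.5). These are lower, but the order of the stretches stayed and the intervals of the last 2 still did not overlap.

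**Figure D1:**
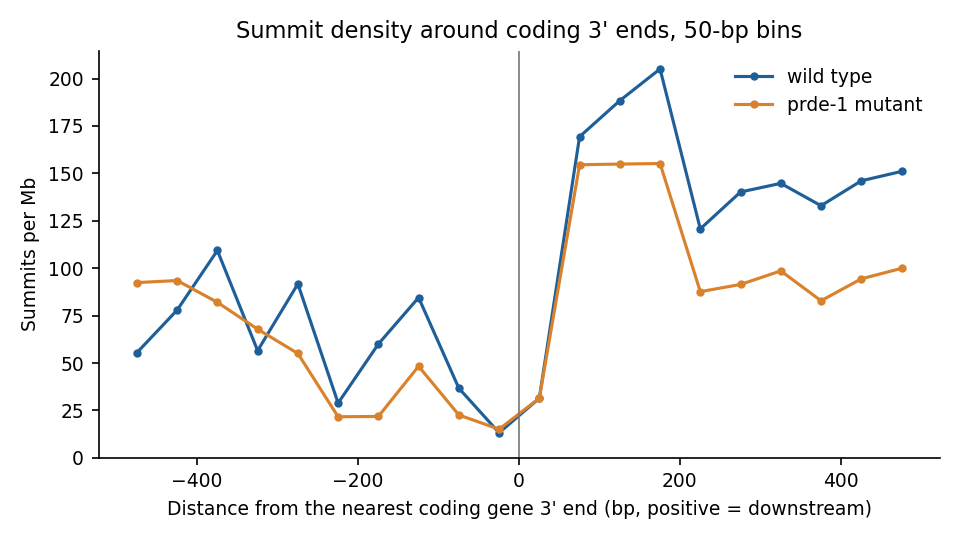
Summits per Mb (vertical axis) against distance from the nearest coding gene 3′ end in bins of 50 bp (horizontal axis, in bp, positive downstream) for the wild type and *prde-1* lists. Bins upstream of the 3′ end cover annotated 3′ UTR bases only. Both lines are lowest around the 3′ end (13.2 and 15.1 summits per Mb in the bin that ends there), rise past 50 bp downstream and drop past 200 bp.

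Over all the bases that the rule admits (4.82 Mb, 4.81% of the nuclear genome), members were less dense than summits elsewhere. Wild type had 98.8 summits per Mb there and 142 over all other nuclear bases, a ratio of 0.697. The *prde-1* mutant had 78.4 and 97.4 per Mb, a ratio of 0.805. The 2 kinds of member differed in this. Wild type 3′ UTR bases held 58.9 summits per Mb and downstream bases 150, while bases within 500 bp of coding 5′ ends held 259 and coding exons 78.7.

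Distances are counted from the gene's 3′ end and are negative upstream of it. The median wild type summit lay at 85.5 bp. Downstream members had a median of 122 bp, with the nearest at 10 bp, and only 18 of 316 lay in the first 50 bp. Among 3′ UTR members the median was -243.5 bp, 40 of 160 were more than 500 bp upstream, and 11 more than 1000 bp. For 69 of these 160, the end of another transcript of the gene was nearer than the end of the gene. Their genes had long 3′ UTRs: the longest annotated one had a median of 570 bases over 156 genes, against 128 bases over the 12732 usable genes with an annotated 3′ UTR. Density rose with this length, from 8.89 summits per Mb of UTR in genes under 200 bases to 65.7 from 200 to under 500 bases, 77.3 from 500 to under 1000 bases and 109 at 1000 bases or more. Bases of short 3′ UTRs mostly lie near the 3′ end, where summits were sparse, so length and distance cannot be told apart here.

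At the downstream edge of the rule, 103 wild type peaks lay in the last 50 bp inside it and 59 in the first 50 bp beyond it. Their median ranks were 5194 and 7276. At the edge toward coding 5′ ends, 19 peaks lay within 50 bp inside the rule and 27 within 50 bp outside it, with median ranks of 5179 and 5318.

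As a base for counting genes, 3′ ends more than 500 bp from every coding 5′ end were called usable, which left 14778 of 19973 coding genes. A wild type member was found at 2.94% of usable ends (434) and a *prde-1* member at 2.35% (347). The intervals for convergent, tandem and distant neighbors overlapped. Ends facing a convergent gene within 500 bp held a wild type member in 2.73% (2.14 to 3.48), convergent ends over 500 and up to 1000 bp away in 3.07% (2.16 to 4.35), and tandem ends at that distance in 3.48% (2.74 to 4.40). Convergent ends within 1000 bp minus those tandem ends gave a difference in share of -0.64 percentage points (-1.70 to 0.325, Newcombe interval from the Wilson bounds), which includes 0. Leaving out peaks on small noncoding RNA genes (-0.92, -1.90 to -0.0401), taking the next gene at any distance (-0.891, -1.56 to -0.215) or admitting 3′ ends from 250 bp off coding 5′ ends (-2.39, -3.33 to -1.47) gave intervals below 0. The gap to a convergent gene within 1000 bp had a lower quartile of 113 bp, less than the 200 bp window. The bar around 5′ ends can likewise cut the window at tandem ends. Orientation and admitted bases per end therefore cannot be told apart here. Tandem ends within 500 bp cannot be usable, since the next gene's 5′ end is then too close. Where no coding gene followed within 1000 bp the share was 3.74% (3.29 to 4.25), and 51.4% of members at usable ends were of this kind. Ends that lie within the span of another coding gene had the lowest share, 1.41% (1.08 to 1.85), an interval below those of the other kinds. The rule bars summits in the coding sequence of any gene, so spanned ends can offer fewer admitted bases. Their members were 43 in 3′ UTRs and 8 downstream, and the shares are not corrected for admitted bases. The *prde-1* list had the same kinds at the bottom and top, with 0.969% (0.698 to 1.34) at spanned ends, 3.00% (2.32 to 3.87) at tandem ends and 3.04% (2.63 to 3.51) where no gene followed.

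By chromosome, the share of usable ends with a wild type member ran from 1.95% (1.55 to 2.44) on V to 4.26% (3.43 to 5.28) on III. It was 2.44% (1.88 to 3.16) on X and 3.03% (2.74 to 3.34) on the autosomes together. In the piRNA domains, the windows of chromosome IV richest in piRNA genes, 14 of 560 usable ends (2.50%, 1.49 to 4.15) held one. Of the 5 highest-ranking members there, those of *srw-63* (a serpentine receptor gene, rank 1852), *Y57G11B.5* (2733), *Y4C6B.2* (3642) and *Y73F8A.14* (3877) overlapped a tRNA gene within 8 bases of the summit. The other was *lin-66* (rank 4348), a heterochronic gene, with a summit at -459 bp on the CT repeat printed above. All 5 had a *prde-1* counterpart. Of all 14 wild type members in the domains, 5 (35.7%, 16.3 to 61.2) had none, against 34.0% of all wild type peaks there.

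The 3 wild type members closest to a 3′ end among the 20% highest scores were those of *pals-26* (10 bp, rank 539, with the summit in the noncoding RNA gene *srpr-1.1*), *Y110A2AR.1* (55 bp, rank 628) and *W03C9.6* (57 bp, rank 1071). Only *rgs-4*, which encodes a regulator of G protein signaling, held 3 members, at -762, -348 and 48 bp (ranks 6765, 11176 and 12934). The highest-ranking of these had a *prde-1* counterpart and the other 2 had none. A further 8 genes held 2 members and 457 held 1.

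Shares of usable ends with a member also varied between gene lists. Of 29 genes of germ line fate and translation with a usable end, 9 (31.0%, 17.3 to 49.2) held a wild type member, against 2.94% of all usable ends. The share was 4 of 30 (13.3%) for P granule and small RNA genes, 1 of 19 (5.26%) for meiosis genes, and 2 of 12 (16.7%) for oocyte and eggshell genes. No member was found at 17 muscle, 26 neuron or 13 epidermis and cuticle genes. A count of 0 allows up to 3 counts, or shares of 17.6%, 11.5% and 23.1%. Of 16 intestine genes, 1 (6.25%) held a member. The 4 germ line lists together had members at 16 of 90 ends (17.8%, 11.2 to 26.9) and the 4 somatic lists at 1 of 72 (1.39%, 0.246 to 7.46). In the *prde-1* list these counts were 13 of 90 (14.4%, 8.64 to 23.2) and 2 of 72 (2.78%, 0.765 to 9.57), against 2.35% of all.

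Length of the 3′ UTR moved with list membership. The median longest 3′ UTR, counting genes without one as 0, was 107 bases over all usable genes, 232 over the germ line lists together and 229.5 over the somatic lists together. Single lists differed, with 406 bases for germ line fate and translation, 402 for muscle, 318.5 for neuron and 120 for oocyte and eggshell genes. Among genes with 200 bases or more, 229 of 4175 (5.49%, 4.83 to 6.22) held a wild type member, and 13 of 50 germ line genes (26.0%, 15.9 to 39.6) and 0 of 43 somatic genes did (3 counts would be 6.98%). At the 5′ ends of the same genes, a wild type summit lay within 500 bp in 49 of the 90 germ line genes (54.4%, 44.2 to 64.3) and 29 of the 72 somatic genes (40.3%, 29.7 to 51.8), against 23.7% of all usable genes. Muscle genes had one in 10 of 17 (58.8%, 36.0 to 78.4) and neuron genes in 7 of 26 (26.9%, 13.7 to 46.1). Of the 9 germ line marker genes used to check the nuclei, 5 had such a promoter peak in wild type (55.6%, 26.7 to 81.1). The share was 25.9% of all coding genes. Among these markers only *mex-5* held a 3′ end member. Over the full somatic lists, promoter peaks were at 12 of 19 muscle, 6 of 19 intestine, 9 of 30 neuron and 6 of 16 epidermis and cuticle genes. The check thus did not set germ line apart from muscle. The part of somatic nuclei in the promoter peaks was not tested.

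**Figure D2:**
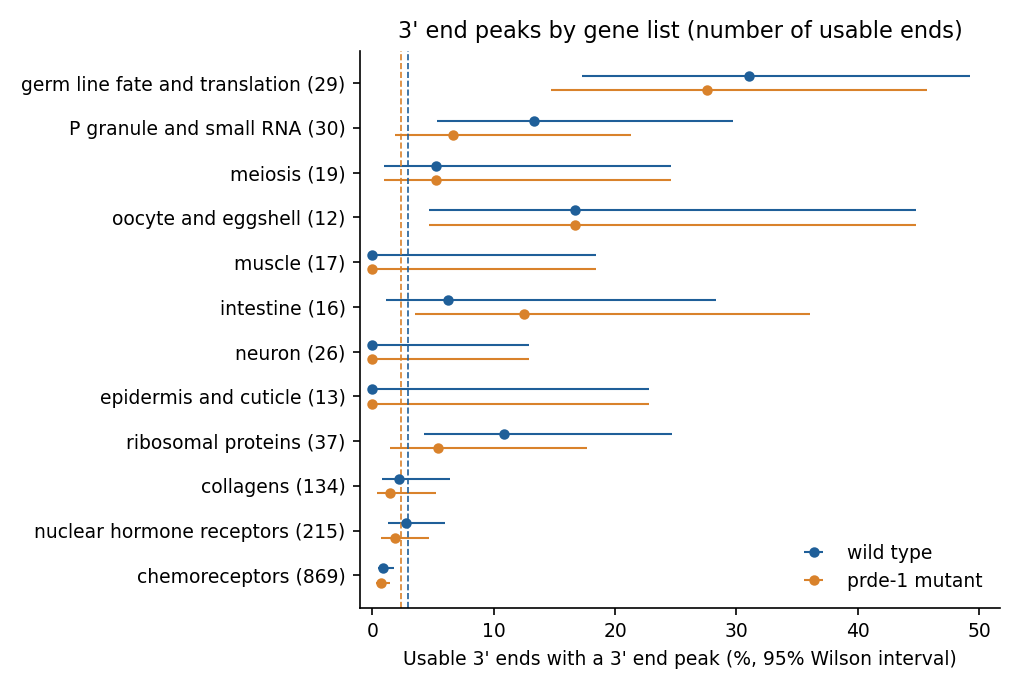
Percent of usable 3′ ends with a 3′ end peak (horizontal axis) in gene lists with at least 10 usable ends, whose number stands in parentheses, for wild type and the *prde-1* mutant, with 95% Wilson intervals. Dashed lines mark all usable ends (2.94% and 2.35%), and germ line fate and translation genes have the highest point in both lists (31.0% in wild type).

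In the list of germ line fate and translation, the highest-ranking wild type members were at genes for maternal RNA regulators. The CCCH zinc finger gene *pos-1* had rank 418 against 721 in *prde-1*, with a summit at -79 bp in both lists. The PUF-domain gene *puf-5* had ranks 430 and 886 and the same summit, at -253 bp. *car-1*, which encodes an LSM-domain protein of germ line RNA granules, had rank 771 in wild type, and its best-overlapping *prde-1* peak had its summit in a coding exon, 316 bp away. *puf-11* had rank 971 with a summit 83 bp downstream, and rank 1279 in the mutant with a summit at 81 bp. *spn-4*, an RNA-binding regulator of maternal transcripts, had ranks 1223 and 2603.

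These were broad peaks that filled much of the gene. In the rest of this account of the germ line lists, *mex-5*, *fem-3*, *nos-3*, *tra-1* and *cgh-1* were named after their values had been seen. The wild type peak covered 100% of *pos-1*, *puf-5* and *car-1*, 96.7% of *spn-4*, 75.3% of *puf-11* and 62.8% of *mex-5*, which encodes a CCCH zinc finger protein of embryonic polarity. Widths were 3066, 2840, 2392, 2059, 1686 and 2089 bp. The summit was thus at the 3′ end and the open stretch reached well beyond it. The *mex-5* peak had rank 2969 and 2089 bp in wild type, against rank 8549 and 383 bp in *prde-1*, with the same summit. *lin-41*, the TRIM-NHL regulator of oocyte growth, had a 1492 bp peak at rank 3374 that had no *prde-1* counterpart.

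Members of lower rank in these lists were mostly narrower, as the score sums over the width of a peak. At the sex determination gene *fem-3* the summit lay 64 bp downstream in both lists (177 bp wide at rank 7746 in wild type, 171 bp at rank 6710 in the mutant). The GLI-family gene *tra-1* had a 313 bp peak in both, at ranks 12049 and 9558. The Nanos-family gene *nos-3* (rank 10341), the Mutator focus scaffold gene *mut-16* (rank 11022) and the microRNA Argonaute gene *alg-2* (rank 11958) had wild type members without a counterpart. *ekl-1*, of the small RNA pathway, had ranks 4995 and 3588. *chk-2*, the meiotic checkpoint kinase gene, had its summit at -993 bp in both lists. The egg activation gene *egg-4* (148 bp downstream in both, 631 and 580 bp wide) and the caveolin gene *cav-1* (85 and 83 bp) made up the oocyte and eggshell members.

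The small RNA gene *hrde-1*, which encodes the nuclear Argonaute of inherited germ line silencing, showed the largest narrowing among the 10 highest-ranking members whose counterpart kept its summit within 50 bp. Its wild type peak (chrIII:4171969-4176121, rank 185) was 4153 bp wide, covered 99% of the gene and had its summit at -391 bp. The *prde-1* peak was 427 bp wide at rank 8014, with a summit 7 bp away, and covered 10.3% of the wild type peak. The PUF gene *puf-3* (rank 1000) and the DEAD-box helicase gene *cgh-1* (rank 6978) held members in the *prde-1* list only. Both mutant peaks overlapped a wild type peak with another summit, 397 bp away in a coding exon for *puf-3* and 2763 bp away for *cgh-1*.

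The 10 highest-ranking wild type members were all at least 1548 bp wide. The first was at *klp-7*, the kinesin-13 microtubule depolymerase gene (rank 10 and 28, 4062 and 3918 bp, summit 95 bp downstream in both lists). The second was at *cpg-1*, which encodes a chondroitin proteoglycan of the eggshell (rank 17 and 18, 3494 and 2978 bp), and covered the whole gene. *C05D11.8* (rank 81), *hrde-1* and the perilipin gene *plin-1* (rank 202, 100% of the gene) also had the summit in the 3′ UTR. The topoisomerase II gene *top-2* (rank 207) had it 116 bp downstream, at the same position as its *prde-1* counterpart, which was 1997 bp wide against 4495.

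Others of the 10 reached into neighbors. The peak downstream of *C07H6.9* (rank 83, 3974 bp) covered none of that gene and at least 50% of *cgh-1*, which follows it, and 4 *prde-1* peaks lay under it. The peak at *mstr-2* (rank 152, 6748 bp) covered at least 50% of *ifet-1*, a translational repressor gene, of *ins-17* and of *rps-1*. Its summit was 19 bases from a tRNA gene, and 4 *prde-1* peaks covered 26.3% of it. The ribosomal protein gene *rpl-7A* (rank 98) and the neuropeptide gene *nlp-4* (rank 124) were covered whole, with summits 83 and 84 bp downstream. The *rpl-7A* summit was also within 200 bp of the convergent gene *tald-1*, and its *prde-1* peak had its summit 1604 bp away.

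Broad peaks were common among members in general. Widths of 1000 bp or more made up 18.8% of 3′ UTR members (30 of 160) and 13% of downstream members (41 of 316), against 8.65% of all wild type peaks. Of these 71, 17 and 21 respectively covered at least 50% of their own gene. Where a *prde-1* peak overlapped, in 24 and 40 of them, it and any others covered a median of 70.9% of the broad 3′ UTR members and 69.0% of the broad downstream members. Narrower members with a counterpart were covered to a median of 92.6% and 88.4%. The remaining 6 and 1 broad members had no *prde-1* peak under them. Other genes with broad wild type 3′ UTR members, chosen for naming after their values were seen, were the Argonaute gene *ppw-2* (2539 bp, 14.2% covered), the amidotransferase gene *gfat-2* (2750 bp, 12%), the glutamine synthetase gene *gln-6* (2577 bp, 84.6%), and the kinesin gene *klp-18* (1054 bp, 92.2%).

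**Figure D3:**
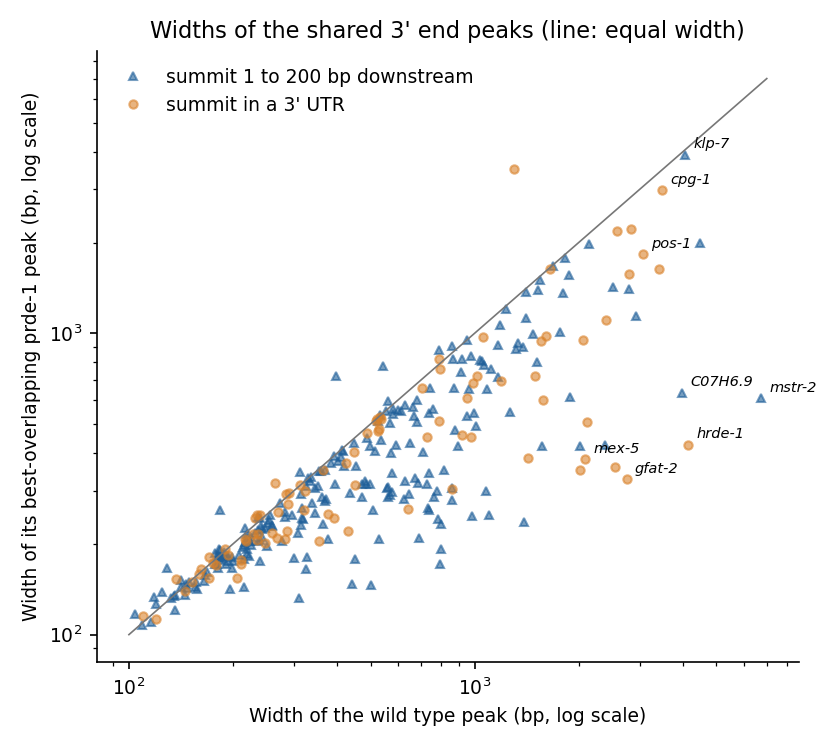
Width of the best-overlapping *prde-1* peak (vertical axis, bp, log scale) against the width of the wild type member (horizontal axis, bp, log scale) for the 324 members with a counterpart, by position of the wild type summit. The line marks equal width, and 281 points lie below it, among them *hrde-1* at 4153 and 427 bp.

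A counterpart was any *prde-1* peak sharing at least 1 base. By this definition 152 of 476 wild type members (31.9%, 27.9 to 36.3) had none, against 36.1% of all wild type peaks. The 2 kinds of member fell on opposite sides of that value. Without a counterpart were 73 of 160 3′ UTR members (45.6%, 38.1 to 53.4) and 79 of 316 downstream members (25%, 20.5 to 30.1). For comparison, the share was 23.2% of promoter peaks, 32.9% of peaks between genes, 42.5% of intron peaks and 73.2% of coding exon peaks. In the other direction, 11 of 378 *prde-1* members (2.91%, 1.63 to 5.14) had no wild type counterpart, against 1.91% of all *prde-1* peaks. The shares of the 2 directions cannot be set against each other, since the wild type list is longer (13996 against 9674 peaks). With the wild type list cut to its 9674 highest scores, 14.8% of wild type members and 12.4% of *prde-1* members had no counterpart.

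Rank moved with these shares. The median rank was 8145.5 for 3′ UTR members and 5971 for downstream members, and 14 and 49 of them were in the 10% of the list with the highest scores. In the upper 50% of the list by score, 8 of 67 3′ UTR members (11.9%, 6.18 to 21.8) and 5 of 176 downstream members (2.84%, 1.22 to 6.48) lacked a counterpart, against 6.63% of all peaks. In the lower 50%, the shares were 69.9% (59.9 to 78.3), 52.9% (44.6 to 60.9) and 65.5%. In each part, the interval for 3′ UTR members included the value over all peaks, and that for downstream members lay below it. Promoter peaks were low as well, at 3.21% (2.61 to 3.95) in the upper part and 47.6% (45.5 to 49.7) in the lower. Coding exon peaks were high, at 29.6% and 90.4%. Cutting the wild type list to its 9674 highest scores left 26 of 102 3′ UTR members (25.5%, 18 to 34.7) and 24 of 235 downstream members (10.2%, 6.96 to 14.7) without a counterpart, against 16.6% of all peaks.

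**Figure D4:**
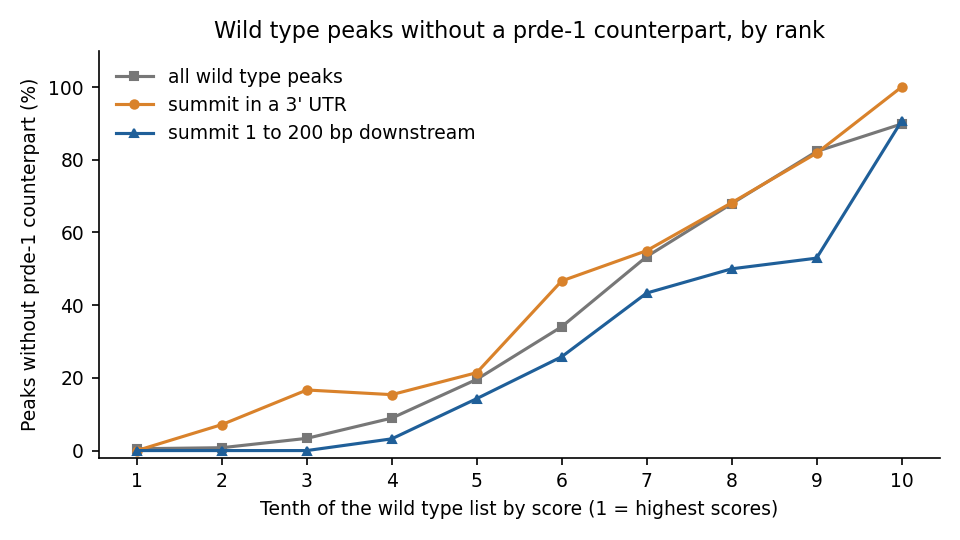
Percent of wild type peaks with no counterpart in *prde-1* (vertical axis) in each of 10 equal groups of the list by score (horizontal axis, group 1 with the highest scores), for all peaks, 3′ UTR members and downstream members. All 3 lines are at or near 0 in group 1 and at 89.8% or more in group 10, and the downstream line is at or below that of all peaks in groups 1 to 9.

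Base composition moved with loss as well. Over all wild type peaks, the share without a counterpart rose from 15.3% in the 20% with the lowest GC content to 67.3% in the 20% with the highest. Members were low in GC (median 41.5%, against 44.2% of all peaks). Among the 20% lowest in GC, 28 of 58 3′ UTR members (48.3%, 35.9 to 60.8) and 14 of 94 downstream members (14.9%, 9.08 to 23.5) had no counterpart. At this low GC content the interval for 3′ UTR members lay above the share of all peaks, and that for downstream members included it. Rank was not held equal here. In the 2 lowest of the 5 GC groups the median rank was 8040.5 for 3′ UTR members and 5383.5 for downstream members. Among the 20% highest in GC, 8 of 13 3′ UTR members (61.5%, 35.5 to 82.3) and 21 of 30 downstream members (70.0%, 52.1 to 83.3) had none, and both intervals included the value over all peaks.

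The 5 highest-ranking wild type members without a counterpart all had the summit in a 3′ UTR and were 1204 to 1492 bp wide. They were at *F19B2.5* (rank 1928), *lin-41* (3374), *F53E2.2* (3817), the bHLH transcription factor gene *mxl-3* (4201) and *melo-1* (4555). *F53E2.2* and *melo-1* end within the span of another coding gene, *unc-60* and *gdi-1*. At such spanned ends, 27 of 51 members (52.9%, 39.5 to 65.9) had no counterpart, and 43 of the 51 were 3′ UTR members. At tandem ends, 13 of 67 (19.4%, 11.7 to 30.4) had none. The highest-ranking *prde-1* members without a wild type counterpart were all downstream and of low rank, at *T19H5.4* (rank 6594), *T27E4.1* (6602), *T03F6.10* (7844), *zig-13* (8429) and *flwr-1* (8447).

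Most members with a counterpart stayed in place. Of the 324 in wild type, 303 (93.5%, 90.3 to 95.7) had a best-overlapping *prde-1* peak that was itself a member at the same gene. From the *prde-1* side this share was lower, 306 of 367 (83.4%, 79.2 to 86.8), and the other wild type summits lay in promoters (19), coding exons (15), introns (11), between genes (12) or at the 3′ end of another gene (4). The summits of wild type members and their counterparts were a median of 2 bp apart, against 3 bp over all 8949 shared wild type peaks. The *prde-1* peak was narrower in 281 and wider in 38, with a median width ratio of 0.866, against 0.893 over all shared peaks. By gene, 299 held a member in both lists, or 64.2% of the wild type genes and 81.2% of the *prde-1* genes. The same-gene shares and this gene overlap were not computed for other kinds of peak. They are therefore not shown to be particular to 3′ end members.

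Small noncoding RNA genes lay under many downstream members. A wild type member overlapped one in 59 of 476 cases (12.4%, 9.73 to 15.7), against 5.87% of all wild type peaks, and 55 of the 59 were downstream members. Of the 316 downstream members, 30 overlapped a tRNA gene, 17 a snoRNA gene, 6 an snRNA gene and 3 a miRNA gene, some of them more than 1 kind, and in 18 the summit was inside the RNA gene. These 55 ranked high (median 1553), and 5 of them (9.09%, 3.95 to 19.6) had no counterpart. The other 261 downstream members had a median rank of 7336, and 74 (28.4%, 23.2 to 34.1) had none. The part of tRNA and snoRNA gene transcription in these peaks was not tested.

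Of the usable ends with a wild type member, 184 of 434 (42.4%, 37.8 to 47.1) belonged to a gene that also had a summit within 500 bp of its 5′ end. At ends without a member the share was 3314 of 14344 (23.1%, 22.4 to 23.8). The *prde-1* shares were 152 of 347 (43.8%, 38.7 to 49.1) and 19.2%. Genes with a wild type member were longer (median 2779.5 bp) than those without (2164 bp), and whether gene length has a part in this was not tested.

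Other gene families gave few members. Ribosomal protein genes had a wild type member at 4 of 37 usable ends (10.8%, 4.29 to 24.7): *rpl-7A*, *rps-6* (rank 511), *rps-19* (2163) and *rps-8* (8997). In the *prde-1* list, *rps-6* (1319) and *rps-19* (5123) remained. Collagen genes had 3 of 134 (2.24%), namely *col-181* (rank 242), *col-120* (1747) and *col-128* (2181). Nuclear hormone receptor genes had 6 of 215 (2.79%), led by *nhr-102* (1315) and *nhr-183* (3795), and chemoreceptor genes 8 of 869 (0.921%, 0.467 to 1.81). Histone genes mostly lie too close to one another to have a usable end (4 genes). Wild type members outside this base were found at both genes that the annotation labels *his-47*. These are on the plus strand (WBGene00001939, rank 1134) and the minus strand (WBGene00001921, rank 1727) of chromosome IV. The same label stands for both identifiers, so histone labels may not tell genes apart. Another member was at the gene labeled *his-58* (WBGene00001940, rank 1250). In the *prde-1* list *his-24* (1497) held one too. No major sperm protein gene had a usable end, and *msp-50* (rank 3418 in wild type) was the member outside this base. Histone, sperm protein and tRNA genes have near-identical copies, so the placement of reads there is uncertain. The intestine list had *spl-1*, the sphingosine-1-phosphate lyase gene (7596 in wild type and 5150 in the mutant), and, in the *prde-1* list only, the cysteine protease gene *cpr-6* (4643).

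The strand composition around summits differed between the kinds of member. Within 50 bp of wild type summits in 3′ UTRs, the strand of the gene held 27.8% C and 17.2% G, and 127 of 160 members had more C than G there while 27 had more G. Admitted 3′ UTR bases as a whole held 17.5% C and 12.6% G, so C exceeded G in the background too. Around downstream summits C and G were both 24.2%, with 148 members richer in C and 153 richer in G, and the admitted downstream bases held 16.4% and 16.5%.

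**Figure D5:**
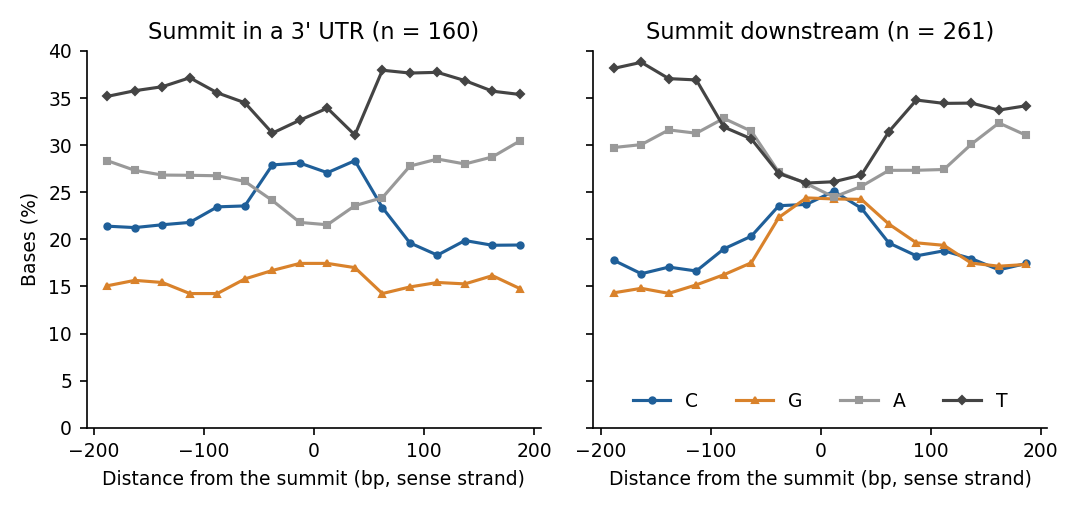
Percent of each base on the strand of the gene (vertical axis) in bins of 25 bp against distance from the wild type summit (horizontal axis, bp), for 160 3′ UTR members and for the 261 downstream members without a small noncoding RNA gene. C is above G in every bin of the 3′ UTR members, with a wider gap near the summit, while C and G rise together around downstream summits.

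The CT repeat printed above followed this difference. CTCTCTC was searched on both strands within 50 bp of the summit, in overlapping positions. It was on the gene's strand in 25 of 160 wild type 3′ UTR members (15.6%, 10.8 to 22) and on the opposite strand in 3. In windows of the same 101 bp tiled over the admitted 3′ UTR bases, it was on the gene's strand in 510 of 26902 (1.90%) and on the opposite strand in 61, so the strand difference was there in the background as well. In the *prde-1* list, 16 of 105 3′ UTR members (15.2%, 9.60 to 23.3) held it on the gene's strand. It was not peculiar to members: on either strand it lay near 28 of 160 wild type 3′ UTR summits (17.5%, 12.4 to 24.1), near 11.4% of downstream summits (8.34 to 15.4), 11.3% of promoter summits and 12.7% of all summits.

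All 6 members whose repeats are printed had a *prde-1* counterpart. Their ranks were 808 for *cept-2*, 2532 for *ubxn-3*, 3300 for *sup-26*, which encodes an RNA-binding protein, 3404 for *rga-9*, 4348 for *lin-66* and 5134 for *ccep-97*. The AATAAA signal was as common at gene ends with a member as at others. It was in the last 30 bases of 55.3% of the 12732 usable genes with an annotated 3′ UTR, of 54% (45.7 to 62.1) of those with a 3′ UTR member and of 57.0% (51.2 to 62.6) of those with a downstream member. For 23 of the 316 downstream members (7.28%, 4.90 to 10.7) the gene has no annotated 3′ UTR, against 2046 of 14778 usable genes (13.8%). The true end of such a gene may lie further downstream than the annotation gives.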

How the data were processed

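ATAC-seq peaks of IGN from 3 wild type and 3 *prde-1* samples were analyzed. The authors trimmed adapters (cutadapt), aligned reads to ce11 (Bowtie2), filtered them, removed duplicates, downsampled and merged replicates, kept short fragments, offset ends for Tn5 and called peaks with Genrich. Tool versions are not given in the sources used here. Keeping short fragments and fixed calling thresholds means that weaker or nucleosome-covered sites can be missing from a list.

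The score the authors deposited sums −log10 p over the width of a peak, with minima of 200.005 (wild type) and 200.004 (*prde-1*), and the deposited −log10 p at the summit is unadjusted. The third deposited column used gives the summit offset. There are 0 columns of values for separate samples, so depth and replicate error are unknown.

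Genes came from Ensembl release 115 and bases from RefSeq (WBcel235). Where several genes qualified, the nearest 3′ end was taken. Named peaks were the 10 highest-ranking wild type members, the 5 highest without a counterpart in each list, the 5 highest in the piRNA domains (3.5 and 1.5 Mb windows), up to 5 per gene list, genes with 3 members, and the 3 closest to a 3′ end among the 20% highest scores. Members, lists and alternatives were chosen with earlier results of these data known. Counts carry 95% Wilson intervals. The rule and the overlap code were tested on simulated data. Python 3.11.15, numpy, scipy and matplotlib were used.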

Additional observations from a re-analysis of the deposited data

How the results depend on the processing

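No paired analysis was possible because each genotype's 3 replicates were pooled into 1 list before deposit, and leaving out a replicate was impossible for the same reason. Of 65 values under alternative settings, 44 stayed within the main 95% interval (or within 1.5 times the main count), 20 moved and 1 changed sign. With 100 bp downstream in place of 200, members numbered 272 and 215 (wild type and *prde-1*), the wild type share without counterpart was 37.9%, the density ratios were 0.503 and 0.577, and the median distance changed sign to -90.5 bp. With 500 bp, members numbered 861 and 635, the wild type density ratio was 0.797 and the median distance 176 bp. With 250 bp from 5′ ends, the density ratios were 0.791 and 0.947 and the convergent minus tandem difference was -2.39 percentage points (-3.33 to -1.47), against -0.64 (-1.70 to 0.325) with 500 bp. That difference was -0.92 (-1.90 to -0.0401) without peaks on small noncoding RNA genes, -0.891 (-1.56 to -0.215) with the next gene at any distance and -0.158 (-0.977 to 0.571) in the upper 50% of the list. In the upper 50% of each list, members numbered 243 and 178, the shares without counterpart were 5.35% and 0% (0 of 178, which allows up to 1.69%), and the median distance was 97 bp. Equal numbers of peaks gave shares of 14.8% (against 16.6% of all wild type peaks) and 12.4%. No value over all *prde-1* peaks was taken at equal numbers, and the 1.91% given above used the full wild type list. Requiring 50% of the peak to be covered gave 42.0% for wild type, against 42.2% of all peaks. The number of downstream bases admitted thus sets the median distance by construction. The convergent minus tandem difference could not be given with 1000 bp from 5′ ends or a next gene within 500 bp, since no tandem end is then usable. The bases admitted per end also differ with orientation and with the distance from 5′ ends. RefSeq genes gave 476 and 385 members. Depth is unknown, and a peak can be missing because its signal fell below the calling threshold.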
